A study of Lathyrus oleraceus with 6 samples.

Results

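The 4 loci described here are Psat5g257040 and Psat3g061280, whose best database matches are named calcium-transporting ATPase, Psat2g004960, whose match is a plant cation-transporting ATPase, and Psat7g118200, whose match is glutamate receptor 3.4. They are 4 of the 44756 loci in the deposited table, and they were chosen because they rose in these same libraries. The CO8-DA group consists of roots of wild-type pea seedlings of cultivar Frisson, 4 to 5 days old, kept for 24 h in 0.5x Jensen's medium with 1e-05 M CO8-DA, which stands for deacetylated chitooligosaccharides of about 8 sugar units. The control group was kept for the same 24 h in this medium without CO8-DA. Each group has 3 libraries, and the paper's methods describe them as biological repeats of a few pooled plants each. The choice of loci rests on the contrast of these groups, so their differences are given below as a description, without a test.

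Calcium enters the plant cytosol through channels and is taken out again by pumps. The pumps of the calcium-transporting ATPase family use ATP to move calcium against its gradient, and many plant members are kept inactive by a terminal domain until calmodulin binds. Glutamate receptor-like channels are plant relatives of the ionotropic glutamate receptors of animals, and in Arabidopsis several of them are known to carry calcium into the cell and to take part in wound signalling. In plants, chitin fragments are known to set off a brief rise of cytosolic calcium, and both kinds of protein shape such a rise.

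Each library held between 12315774 and 19534336 estimated counts. The counts were scaled with edgeR's TMM method, and a level is given as CPM, the count relative to the scaled library total. Of 21293 loci with enough counts to be tested, 666 were called by edgeR's quasi-likelihood test, which here needed an adjusted p under 0.05 and a log2 fold change of 1 or more in size, 561 of them higher and 105 lower after CO8-DA. In all, 3.13% of the tested loci were called in either direction, 2.63% higher and 0.493% lower, and DESeq2 called 2.94% higher among the loci to which it gave an adjusted p. All 4 loci are among those called higher by either tool, which their choice fixes. At each of them the CO8-DA libraries lay above all control libraries, as they did at 13.7% of the tested loci, while 11.7% lay the other way round. Whole roots were sampled, so more RNA per cell and more cells with the transcript cannot be told apart. The table pairs no names with its loci, so the root identity of the samples was not checked against marker genes. Lengths and sequences of the loci were not analysed here, which is why levels are compared between libraries and not between loci.

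Psat5g257040, a calcium-transporting ATPase, had the widest change among the pumps. Its level was 61.3, 67.5 and 74.8 CPM in CO8-DA replicates 1, 2 and 3, against 1.70, 0.490 and 1.57 CPM in control replicates 1, 2 and 3. The lowest CO8-DA library lay 36.2-fold above the highest control library, and the groups were far from overlapping. Behind these levels stand 786, 1075 and 1461 reads in the CO8-DA libraries and 25, 6 and 22 reads in the control libraries. The mean level was 67.9 ± 6.71 CPM after CO8-DA and 1.25 ± 0.663 CPM in the control (SD, n = 3 each), a log2 fold change of 5.72 with a standard error of 0.29. This equals a 52.7-fold difference and was the 29th largest log2 fold change among the 561 loci called higher.

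**Figure D1:**
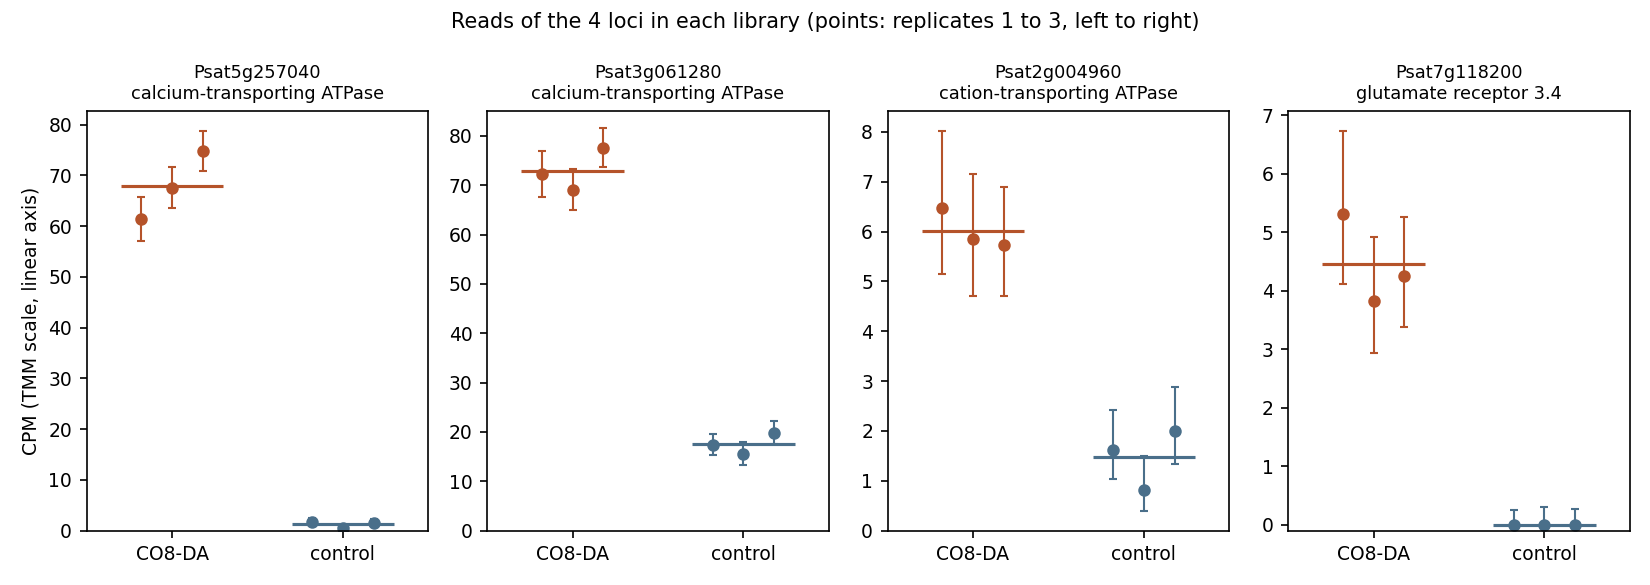
Level of each locus as CPM on the TMM scale (linear axes, one per locus) in the 3 CO8-DA libraries and the 3 control libraries; points are libraries in the order of replicates 1 to 3, horizontal lines are group means and bars are exact Poisson intervals at 95%, which cover counting error only. In each panel the CO8-DA points lie above all control points, and Psat7g118200 is at 0 in every control library.

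Psat3g061280, the other locus described as a calcium-transporting ATPase, was already well measured in the control roots. It had 72.2, 69.1 and 77.5 CPM in CO8-DA replicates 1, 2 and 3, against 17.4, 15.5 and 19.7 CPM in control replicates 1, 2 and 3. The libraries within each group lay close together, with the highest 1.12-fold above the lowest after CO8-DA and 1.27-fold in the control. The means were 72.9 ± 4.28 CPM after CO8-DA and 17.5 ± 2.11 CPM in the control (SD, n = 3 each). The log2 fold change was 2.06 with a standard error of 0.12, or 4.16-fold.

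Psat2g004960, the cation-transporting ATPase, changed by a like factor from far fewer reads. It had 6.48, 5.84 and 5.73 CPM in CO8-DA replicates 1, 2 and 3, against 1.63, 0.816 and 2.00 CPM in control replicates 1, 2 and 3, from 83, 93 and 112 reads and from 24, 10 and 28 reads. The groups did not overlap, and the lowest CO8-DA library was 2.87-fold above the highest control library. The mean was 6.02 ± 0.403 CPM after CO8-DA and 1.48 ± 0.606 CPM in the control (SD, n = 3 each), a log2 fold change of 2.00 with a standard error of 0.30. Of the 4 loci, this was the one whose edgeR call depended on single libraries, being lost without CO8-DA replicate 1 (log2 fold change 1.95) and without CO8-DA replicate 2 (2.02), with the size of the change nearly as before.

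The fold changes of the pumps were of unequal size. Unequal gene length cancels in the ratio of one pump to another, once it is compared between libraries. The reads of Psat5g257040 per read of Psat3g061280 were 0.850, 0.978 and 0.964 in CO8-DA replicates 1, 2 and 3, against 0.0977, 0.0316 and 0.0797 in control replicates 1, 2 and 3. From the fitted fold changes, this ratio was 12.7-fold higher after CO8-DA. The reads of Psat5g257040 per read of Psat2g004960 were 9.47, 11.6 and 13.04 in the CO8-DA libraries and 1.04, 0.600 and 0.786 in the control libraries, with the groups far apart as well. The ratio of Psat3g061280 to Psat2g004960 was 11.1, 11.8 and 13.5 in the CO8-DA libraries and 10.7, 19.0 and 9.86 in the control libraries, so the groups overlapped. The log2 fold changes of these last 2 loci differed by 0.05, less than the standard error of either. No test was made of these differences, since all of these values come from the contrast that chose the loci.

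Psat7g118200, the glutamate receptor 3.4-like locus, had no count in any control library. The estimated counts were 67.94, 61.3 and 83.27 in CO8-DA replicates 1, 2 and 3, against 0, 0 and 0 in control replicates 1, 2 and 3. On the CPM scale this was 5.31, 3.83 and 4.25 in the CO8-DA libraries, with a mean of 4.46 ± 0.760 CPM (SD, n = 3). A count of 0 allows up to 3 reads, which is 0.203, 0.245 and 0.214 CPM in control replicates 1, 2 and 3 taken singly and 0.0732 CPM over the control group. Measured against this last floor, CO8-DA roots had an at least 60.0-fold higher level. Without control replicate 1 this bound was 38.4-fold, without control replicate 3 it was 39.6-fold, and without control replicate 2 it was 42.0-fold, as fewer control reads then stand behind the floor. Of the 561 loci called higher, 12 had 0 counts in the whole control group, Psat7g118200 among them.

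The 3 estimates that are not whole show that RSEM counted some reads of Psat7g118200 only in part. Such fractions can arise when reads fit several loci. An estimate was taken as whole within 0.005. A partner whose decimals complete those of Psat7g118200 to whole numbers in all 6 libraries (within 0.015) was looked for among the 8781 loci with an estimate that is not whole, and none was found. The level of Psat7g118200 may therefore hold an unknown part of reads that also fit elsewhere, and which loci these would be is not known. The estimates of the 3 pumps were whole in all 6 libraries.

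The spread among replicates also enters the call by which the loci were chosen, and it is given as a description. After CO8-DA the libraries lay close together at every locus, with the highest at most 1.38-fold above the lowest (Psat7g118200). In the control the highest library was 3.46-fold above the lowest at Psat5g257040 and 2.45-fold at Psat2g004960. The pooled standard deviation of log2 CPM within groups was 0.62 at Psat5g257040, above that of 98.0% of the 500 tested loci nearest in average level. It was 0.44 at Psat2g004960 (above 75.2% of its 500 nearest) and 0.14 at Psat3g061280 (above 46.6%). Most of the spread at Psat5g257040 came from the control, with an SD of 0.87 there and 0.14 after CO8-DA. At Psat2g004960 the SD was 0.61 in the control and 0.09 after CO8-DA. These control libraries held few reads (25, 6 and 22, and 24, 10 and 28). The 500 loci were matched on the average over both groups and not on the control level, so these ranks include low-count noise.

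Control replicate 2 had the lowest level of the 3 control libraries at each of the 3 pumps. At low counts the order of libraries is open to counting error. The exact Poisson interval at 95% was 0.180 to 1.07 CPM for Psat5g257040 in control replicate 2. It was 1.10 to 2.50 CPM in control replicate 1, which did not overlap it, and 0.985 to 2.38 CPM in control replicate 3, which did. For Psat3g061280 the intervals were 13.4 to 17.9 CPM in control replicate 2 and 15.3 to 19.6 CPM in control replicate 1, and they overlapped. For Psat2g004960 they were 0.391 to 1.5 CPM in control replicate 2 and 1.04 to 2.42 CPM in control replicate 1, and these overlapped too. The intervals cover counting error only and not the spread between separate samples. The same library was lowest at 70.0% of the loci called higher (375 of 536 with a single lowest control library) and at 35.4% of all such tested loci (7533 of 21261). No label tells control replicate 2 apart from the other control libraries. Without it the log2 fold change was 5.37 at Psat5g257040, 1.97 at Psat3g061280 and 1.72 at Psat2g004960, and all 3 pumps were still called.

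**Figure D2:**
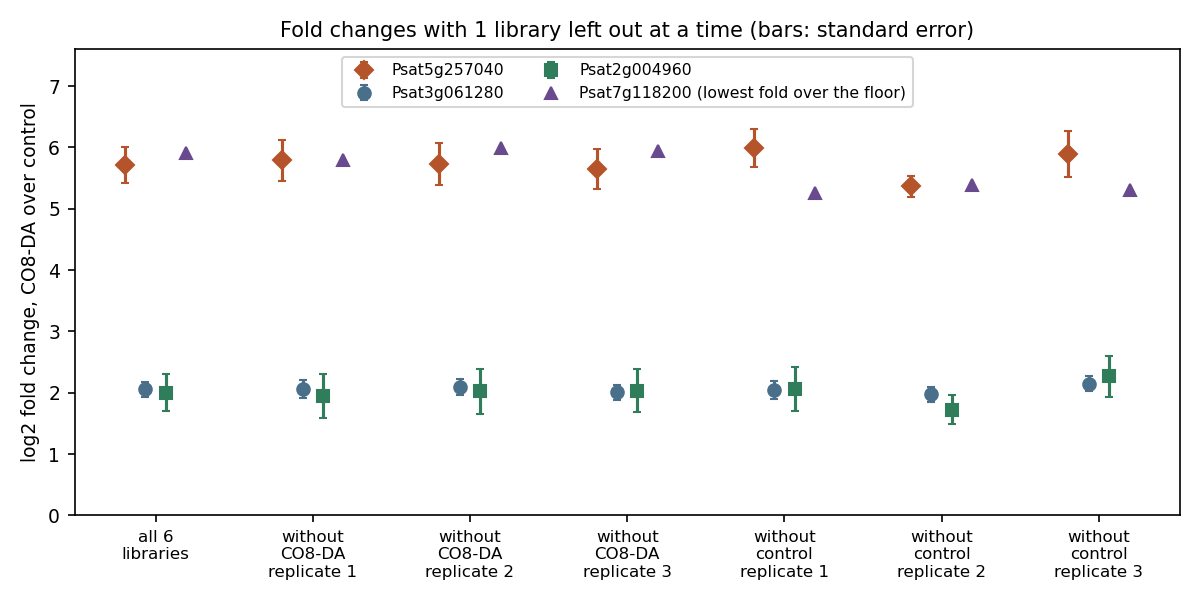
Log2 fold change, CO8-DA over control, of each locus with all 6 libraries and with 1 library left out at a time; bars are standard errors, and triangles for Psat7g118200 give the lowest fold that a floor of 3 control counts allows. Psat5g257040 moved between 5.37 and 5.99, Psat3g061280 between 1.97 and 2.15 and Psat2g004960 between 1.72 and 2.27.

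Across the 6 libraries the log2 levels of the pumps followed each other, with a Pearson r of 0.99 for Psat5g257040 with Psat3g061280, 0.98 for Psat5g257040 with Psat2g004960 and 0.97 for Psat3g061280 with Psat2g004960. These values mostly restate that all of them are high in one group. After the group means were subtracted, r was 0.77, 0.91 and 0.82 for the same pairs. The libraries, their depth and the low control replicate 2 are shared by all of these points. With Psat7g118200 the remaining r lay between -0.11 and 0.14, where only the 3 CO8-DA libraries carry information because the control libraries are all at 0.

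Loci with the most similar pattern were sought by Pearson r of log2 CPM over the 6 libraries among the other 21292 tested loci. For Psat5g257040 they were Psat3g049400 (a C2H2 zinc finger transcription factor, r = 1.00 after rounding), Psat7g017040 (without a description) and Psat5g272720 (a proton pump interactor). Psat7g017040 changed by 0.34 on the log2 scale, which shows that r compares the shape over libraries and not the size. Proton pump interactors are known in Arabidopsis as partners of the plasma membrane proton pump, and Psat5g272720 had a log2 fold change of 2.00. For Psat3g061280 the closest were Psat6g069040 (a C2H2 zinc finger factor), Psat4g218440 (a RALF-like peptide) and Psat2g013440 (a probable disease resistance protein). For Psat2g004960 they were Psat6g170880 (a glutathione S-transferase), Psat5g271720 (an ethylene response factor) and Psat4g074840 (a glycerolipase). For Psat7g118200 they were Psat7g016000 (uncharacterized), Psat6g026640 (a WRKY transcription factor) and Psat2g009080 (an ABC transporter of the multidrug resistance type). Psat7g016000 and Psat6g026640 also had 0 counts in every control library. Each of the 4 loci had at least 51 others with r over 0.99, so the names stand for the top of a long list. With a prior count of 0.5 in place of 2, Psat3g049400 fell to rank 48 for Psat5g257040, Psat6g069040 to rank 21 for Psat3g061280 and Psat6g170880 to rank 140 for Psat2g004960, while the other named loci stayed among the first 3. By Spearman's rho, 135, 138, 68 and 4 loci shared a rho of 1 with Psat5g257040, Psat3g061280, Psat2g004960 and Psat7g118200, so that measure singled out no 3 loci. Of the named loci, only Psat6g170880, Psat7g016000 and Psat6g026640 had a rho of 1, and the others had 0.928 to 0.943. After the group means were subtracted, r of the named loci lay between 0.699 (Psat2g009080) and 0.999 (Psat7g016000).

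The annotation of the study's changed genes gives the 4 loci a function in common. Of its 886 rows, 4 carry the Gene Ontology term calcium ion transmembrane transport, and these are the 4 loci. The text is shortened in 178 rows and missing in 135, so further rows may belong there. The term calcium-transporting ATPase activity stands at 4 rows, the 3 pumps and Psat0s744g0080, which is described as an alpha carbonic anhydrase and had 9, 23 and 21 reads in the CO8-DA libraries and 2, 0 and 0 in the control libraries. All 3 pumps also carry calmodulin binding (12 rows) and response to nematode (11 rows). The text of Psat7g118200 is among the shortened ones, and what is left of it names response to wounding, cellular response to cold and the ionotropic glutamate receptor signaling pathway.

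Other loci of the same families could be found only in the study's tables of changed and of rising genes, 2192 loci in all. Family members that stayed level or fell slightly have no name there, so the counts that follow cannot say how a whole family behaved. Of 5 loci described as calcium pumps, 3 were tested, and these are the 3 pumps above. The remaining ones had too few reads to be tested. Psat7g172240, described as calcium-transporting ATPase 8, had 10, 12 and 9 reads in the CO8-DA libraries and 3, 1 and 2 in the control libraries. Psat4g082120, described as calcium-transporting ATPase 2, had 3, 3 and 4 reads in the CO8-DA libraries and 1, 2 and 0 in the control libraries.

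Among 4 loci described as glutamate receptors, 2 were tested and both were called higher. Psat7g118200 is one of these. The other is Psat3g176280, described as glutamate receptor 2, with 8.35, 7.23 and 8.70 CPM in CO8-DA replicates 1, 2 and 3, against 1.83, 1.14 and 1.93 CPM in control replicates 1, 2 and 3. Its groups did not overlap, and the log2 fold change was 2.29 with a standard error of 0.24. The call was made in all 6 fits with 1 library left out. Psat3g176240, the locus before Psat3g176280 in identifier order and described in the same way, had 1, 2 and 3 reads in the CO8-DA libraries and 0, 0 and 2 in the control libraries. Psat5g033720, described as glutamate receptor 3.2, had 1, 4 and 1 reads in the CO8-DA libraries and 0, 0 and 0 in the control libraries. Both are too thinly covered for a comparison.

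Other pumps of the same P-type family move other ions, and these went both ways. Of 5 such loci, 3 were tested, 1 was called higher, 1 lower and 1 was not called. The called ones are neighbours in identifier order and are both described as heavy metal P-type ATPases, with Gene Ontology terms for copper transport. Psat2g182920 had 30.6, 29.3 and 51.0 CPM in CO8-DA replicates 1, 2 and 3, against 12.5, 6.12 and 11.4 CPM in control replicates 1, 2 and 3, a log2 fold change of 1.88 with a standard error of 0.31. Psat2g182880 had 44.1, 28.2 and 52.8 CPM in the CO8-DA libraries, against 79.7, 91.0 and 117 CPM in the control libraries, a log2 fold change of -1.20 with a standard error of 0.24. At each of these loci the groups stood apart, in opposite directions. The call of Psat2g182880 was lost without CO8-DA replicate 1 or 2 or control replicate 2 or 3, with log2 fold changes between -1.41 and -0.98 over the 6 fits. That of Psat2g182920 was lost without control replicate 3 (1.57). Psat3g000360, a plasma membrane proton ATPase, had 1.17, 3.71 and 3.33 CPM in the CO8-DA libraries and 1.09, 1.63 and 1.29 CPM in the control libraries. Its groups overlapped and it was not called (log2 fold change 1.06, standard error 0.44). Psat4g104960 and Psat4g225080, described as a plasma membrane ATPase and a plasma membrane proton ATPase, had at most 5 reads in any library.

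**Figure D3:**
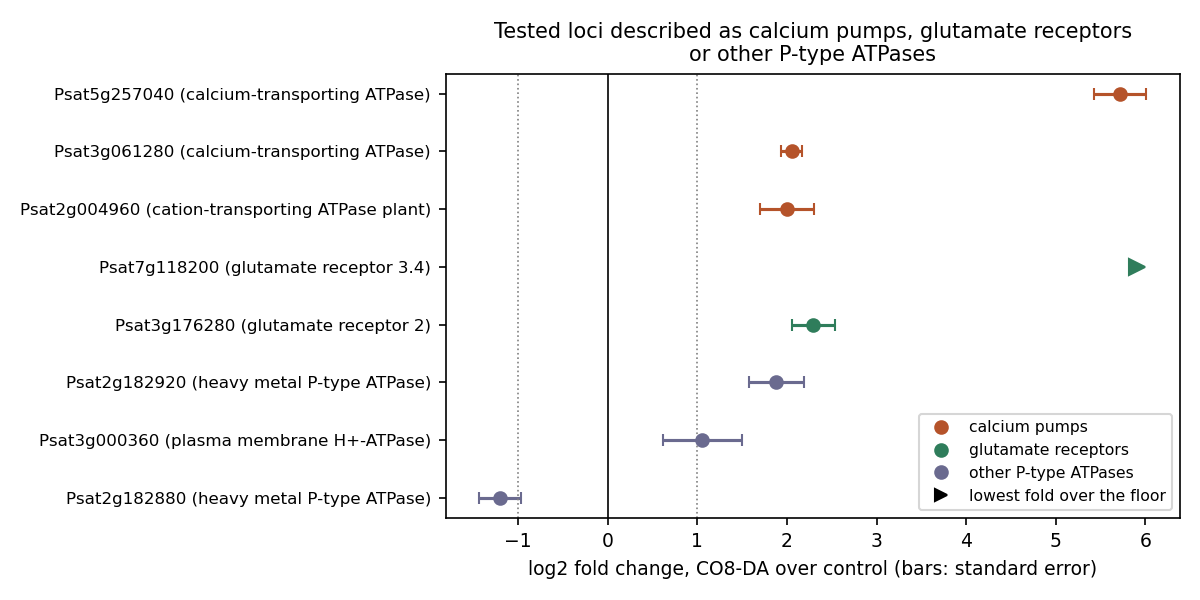
Log2 fold change, CO8-DA over control, of the 8 tested loci described as calcium pumps, glutamate receptors or other P-type ATPases; bars are standard errors, the triangle gives the lowest fold that the floor allows for Psat7g118200, and dotted lines mark an absolute log2 fold change of 1. Psat2g182880 alone lies below 0.

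Cation/H+ antiporters, which exchange protons for other cations, gave no call. Of 6 loci, 2 passed the filter on low counts. EdgeR's quasi-likelihood test, DESeq2 and limma-voom each called 0 of them, and 1 had an unadjusted p under 0.05 in edgeR. Psat5g145040 had a log2 fold change of 0.97 (standard error 0.30), with the groups apart. Psat5g152640 had 1.04 (standard error 0.48), with overlapping groups. Both are named here after their values were seen. As 3.13% of all tested loci were called, 0 of 2 does not set the antiporters apart from the rest. Calcium sensors and decoders, the proteins that bind calcium or calmodulin and pass the signal on, were called higher at 20 of 26 tested loci and lower at 0 (35 loci are described so). Of the 35, DESeq2 called 25, with Psat2g020680 and Psat4g102960 as lower. EdgeR did not test Psat4g102960, an IQ calmodulin-binding motif protein named here after its values were seen. It had 0, 0 and 0 reads in the CO8-DA libraries and 4, 9 and 8 in the control libraries. Limma-voom called 20 of the 26, and all 26 had an unadjusted p under 0.05 in edgeR. The highest fitted change was in Psat4g065400, an EF hand protein with 62, 86 and 143 reads in the CO8-DA libraries and 0, 1 and 0 in the control libraries. Psat3g028080, a calcium-dependent protein kinase, had 8.66, 9.80 and 9.11 CPM in CO8-DA replicates 1, 2 and 3, against 3.12, 3.35 and 5.00 CPM in control replicates 1, 2 and 3 (log2 fold change 1.26, standard error 0.22). Leaving out control replicate 2, or a single CO8-DA replicate, ended its call, with log2 fold changes between 1.13 and 1.51. Psat2g020680, also described as such a kinase and named here after its values were seen, had 2.50, 0.880 and 0.512 CPM in the CO8-DA libraries and 2.78, 7.51 and 4.43 CPM in the control libraries, and edgeR did not call it (log2 fold change -1.97, standard error 0.59) while DESeq2 did. All of the sensors come from the same tables of changed and rising genes, so their share is not set against the background.

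The loci next to each of the 4 on its chromosome were not chosen by their values, so these can be tested. Identifiers are assumed to follow the chromosome, and 5 loci were taken on either side, 40 in all. Of these, 14 had no count in any library and 18 were tested. None was called, with 0 calls each from edgeR's quasi-likelihood test, DESeq2 and limma-voom. In edgeR 3 had an unadjusted p under 0.05, and the share of all tested loci under that threshold is not given here for comparison. Of all tested loci 3.13% were called, so 0 of 18 does not set the neighbours apart from the rest. The median log2 fold change of the 18 neighbours was -0.05, against -0.01 over all tested loci. Beside Psat5g257040, the pump with the largest fold change, Psat5g257080 was lower after CO8-DA. It had 38.7, 37.9 and 31.6 CPM in the CO8-DA libraries and 68.6, 57.5 and 55.2 CPM in the control libraries. Its log2 fold change of -0.75 (standard error 0.13, edgeR quasi-likelihood adjusted p = 0.0166) did not reach the fold threshold. The neighbours of Psat3g061280 stayed between -0.30 and 0.27, and those of Psat2g004960 between -0.68 and 1.11.

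**Figure D4:**
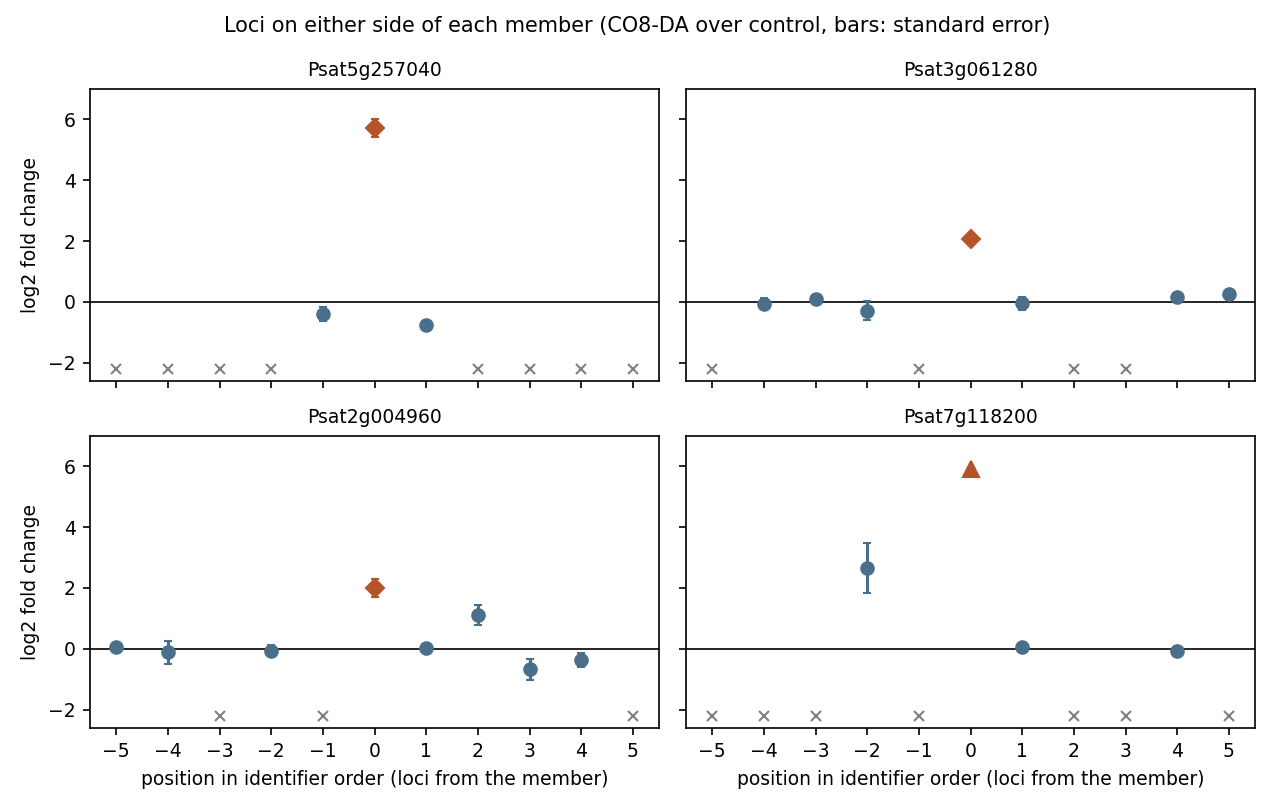
Log2 fold change, CO8-DA over control, of each of the 4 loci (position 0, diamonds, or a triangle for the lowest fold of Psat7g118200) and of the 5 loci on either side in identifier order (circles); bars are standard errors and crosses mark loci that were not tested. Most of the 18 tested neighbours lie near 0, with Psat7g118080 at 2.66 as the highest.

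Close to the glutamate receptor-like locus lies Psat7g118080, described as an isoflavone synthase, an enzyme of isoflavonoid phytoalexin synthesis. It had 63.8, 51.5 and 41.0 CPM in CO8-DA replicates 1, 2 and 3, against 13.1, 0 and 11.2 CPM in control replicates 1, 2 and 3. The groups did not overlap, but the control libraries differed widely and the locus was not called (log2 fold change 2.66, standard error 0.81, edgeR quasi-likelihood adjusted p = 0.126). Without control replicate 2 it was called, with a log2 fold change of 2.09. Its estimates are not whole in 5 libraries. With 10 loci on either side, 3 of 42 tested loci were called, Psat7g117880 (also an isoflavone synthase, 3.09), Psat7g118440 (a phospholipase A1, -2.14) and Psat3g061600 (without a description, -1.72). The background is again 3.13%, and whether 3 of 42 differs from it was not tested. DESeq2 called 2 of the 42 and limma-voom 1. The call of Psat3g061600 was lost in all 6 fits with 1 library left out, and neither DESeq2 nor limma-voom made it. Those of Psat7g117880 and Psat7g118440 were each lost without any one CO8-DA replicate and without control replicate 3, with log2 fold changes of 2.57 to 3.63 and of -2.46 to -1.56. Psat7g117880 and Psat7g118440 lie near Psat7g118200. The estimates of Psat7g117880 are also not whole in 5 libraries, and it had 212, 9 and 157 reads in control replicates 1, 2 and 3. Control replicate 2 was thus lowest at both isoflavone synthase loci. Whether these loci share reads was not tested, so they may not be separate observations. Psat7g118240, immediately after Psat7g118200, had 96.7, 86.3 and 104.5 CPM in the CO8-DA libraries and 84.4, 94.2 and 94.7 CPM in the control libraries, with overlapping groups. Psat5g257080, Psat7g118080 and Psat7g118240 were not called and are named here after their values were seen.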

How the data were processed

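Per the methods and the submitters' processing notes, RSEM 1.3.1 was run by the authors with Bowtie2 2.4.4 on the pea genome v1a, after adapter and quality trimming in Trimmomatic 0.39. What they deposited is a table of RSEM's estimated counts per gene, not normalized. RSEM splits reads that fit several loci, so a level can hold reads of a near copy. Columns were matched to samples by their description labels.

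After rounding to whole numbers, a fit was made with edgeR 4.0.16 under R 4.3.3 (TMM, default filterByExpr, glmQLFit, glmQLFTest, Benjamini-Hochberg adjustment over 21293 loci, two-sided). The standard error is the log2 fold change divided by the square root of F. Log2 CPM used a prior count of 2. Where the control had 0 counts, a floor of 3 counts over the group gave the lowest fold, and intervals and floors cover counting error only. Descriptions came from the study's supplementary tables, whose values were not used. Of the locus identifiers, 0 occur in the RefSeq table at hand. The loci, keyword lists and rules were chosen with earlier results of these data known. Loci named by rule are the 4 and all described calcium pumps, glutamate receptors and other P-type ATPases. Also named by rule are Psat4g065400 (the called sensor with the highest change), Psat3g028080, called neighbours and the 3 most similar loci of each of the 4. No antiporter was called, so none was named by rule. Alternatives were DESeq2 1.42.0, limma-voom (limma 3.58.1), 2 other scalings, 2 other filters, unrounded counts, robust estimation, thinned libraries, leaving out single libraries, and a block on either the title's or the description's number. The neighbour window and the measure of similarity were also changed. Figures were drawn with Python 3.11.15 and matplotlib 3.10.9.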

Additional observations from a re-analysis of the deposited data

How the results depend on the processing

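In the 11 alternatives fitted to all 6 libraries, the log2 fold change stayed between 5.70 and 5.92 for Psat5g257040. It stayed between 2.01 and 2.06 for Psat3g061280 and between 1.99 and 2.17 for Psat2g004960, and all 4 loci were called in each alternative. The values 5.92, 2.01 and 2.17 came from the block by library number. In that fit control replicate 1 and CO8-DA replicate 3 share their number with no library of the other group, so they add nothing to the contrast. With 1 library left out the ranges were 5.37 to 5.99, 1.97 to 2.15 and 1.72 to 2.27. For Psat7g118200 the log2 of the lowest fold over the floor was 5.91, and 5.26 to 5.995 with 1 library left out, lowest without a control library because fewer control reads then stand behind the floor.

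Without 1 library, 371 to 943 loci were called, 338 to 778 higher and 33 to 165 lower. The sample titles do not say whether equal replicate numbers mark paired samples. Libraries with the same number in the title correlated by 0.23, 0.05 and 0.15 after subtracting group means. Each CO8-DA library correlated best with the control library of its title number, while control replicate 2 correlated best with CO8-DA replicate 3. The library numbers in the description labels differ from those in the titles. By them CO8-DA replicate 1 goes with control replicate 3 (-0.12) and CO8-DA replicate 2 with control replicate 2 (0.05). Control replicate 1 and CO8-DA replicate 3 then have no partner. With so few libraries these values cannot settle whether the samples are paired. The replicate block by title number called 706 loci (588 higher, 118 lower). The block by library number, to which the libraries without a partner add nothing, called 1094 (888 higher, 206 lower). DESeq2 called 196 lower. No block changed a call among the 4 loci. The called calcium pumps numbered 2 to 3, other P-type ATPases 0 to 2, sensors 15 to 21 and neighbours 0 to 1 with 1 library left out. With 10 loci on either side 3 neighbours were called. The cause of these differences was not tested. Psat2g004960 and Psat7g118200 rest on few reads, at most 112 in any library.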
